A study of Homo sapiens with 36 samples.

Results

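The comparison is between neuroblastoma cells transfected with a negative control siRNA and harvested 54 h later, and cells of the same lines given the same siRNA and harvested at 42 h. It rests on the arrays labelled Neg Co. No. 1 at these times, which make 8 of the 36 arrays of the series. At 54 h there were 2 BE(2)-C and 2 IMR-32 arrays, and at 42 h again 2 BE(2)-C and 2 IMR-32 arrays. Control arrays at 48 h (2 per line) served as the midpoint, so that 12 control arrays entered the fits. The other 24 arrays of the study came from cells given HDAC11 siRNA no. 1 or no. 2, which target a histone deacetylase, and they are used here only to set the same time contrast beside that of the control cells. All cells, controls included, were transfected with HiPerFect and grown in DMEM with fetal calf serum and non-essential amino acids, and no untransfected array was analysed here. BE(2)-C and IMR-32 are established neuroblastoma lines with amplified MYCN. BE(2)-C cells lack functional p53. The 2 arrays of a group are described as biological replicates, but whether they came from separate cultures or transfections is not given in the sources used here, so that p-values measure only the spread between these arrays. Time since transfection, time in culture and the day or slide of an array cannot be told apart.

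Neuroblastoma cells of the adrenergic kind resemble sympathetic neuroblasts: they express transcription factors of the sympathetic lineage, make noradrenaline through tyrosine hydroxylase and dopamine beta-hydroxylase, and keep dividing in culture. Between harvests such cultures grow denser, use up glucose and amino acids of the medium, and dilute or clear the transfected siRNA. A negative control siRNA has no intended target, but it still enters the cell in a lipid complex, is double-stranded RNA, and occupies the Argonaute proteins that carry microRNAs.

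Signals of 47320 probes were tested, of which 30112 carried 1 gene symbol, for 20045 genes in all. Levels are log2 of the quantile-normalized intensity, changes are 54 h minus 42 h on that log2 scale with their standard errors, and a probe was called at a Benjamini-Hochberg adjusted p under 0.05 over all probes in limma. Detection required a detection p under 0.01 together with a signal over the array's background centre. Between 17494 and 19476 probes were detected per control array, and array medians before normalization lay between 104 and 135. In both lines all 9 measured adrenergic neuroblast markers were detected on all control arrays, whereas none of the 2 Schwann cell and 3 endothelial markers measured was detected on any control array. Of 11 mesenchymal markers 7 were detected on at least 1 control array of BE(2)-C and 5 of IMR-32, among them TWIST1 on all arrays of both lines and DCN on all arrays of BE(2)-C, and of 5 epithelial markers 2 and 3 were; none of these was called at 54 h against 42 h. HDAC11 itself lay near background, at log2 levels of 6.70 to 6.99 in BE(2)-C and 6.83 to 7.09 in IMR-32 control arrays, so its probe could not check the siRNA labels.

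One control array stood apart. Over 9302 bright probes (mean log2 level above 8), the array of BE(2)-C at 54 h, replicate 1, correlated at r = 0.956 to 0.977 with the other control arrays of its line, against 0.984 to 0.995 among those others and 0.994 to 0.996 among IMR-32 control arrays. The log2 difference between the 2 replicates of BE(2)-C at 54 h had an SD of 0.353 over these probes, against 0.167 in BE(2)-C at 42 h, and it was 0.140 and 0.137 in IMR-32 at 54 h and 42 h. Calls and leading changes that use this array are therefore given with and without it. Without it BE(2)-C at 54 h is a single array, which is assumed to vary like the other groups.

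Few probes were called for a change shared by both lines. With cell line as a block, 6 probes were called between 54 h and 42 h, which is 0.0127% of those tested; all 6 were higher at 54 h and none was lower, while 4505 probes had an unadjusted p under 0.05. The only called probe with a gene symbol belonged to PTMA, which encodes prothymosin alpha, an abundant acidic nuclear protein linked to chromatin and proliferation; its gene has processed pseudogenes whose transcripts a probe may share. In BE(2)-C its log2 level was 11.73 and 11.11 at 54 h, against 10.74 and 10.71 at 42 h. In IMR-32 it was 10.93 and 10.53 at 54 h, against 10.19 and 9.86 at 42 h. The 2 times did not overlap in either line, and the arrays at 48 h, with 11.22 and 11.12 in BE(2)-C and 10.52 and 10.25 in IMR-32, lay above those at 42 h and below the higher one at 54 h. Both 54 h arrays were above both 42 h arrays in both lines for 3.66% of all probes, and below them for 3.81%. The shared change of PTMA was 0.70 ± 0.11, or 1.63-fold (SE, adjusted p = 0.0294, limma), and the lines differed in it by -0.01 ± 0.23. Without the array that stood apart it was 0.59 ± 0.10 (adjusted p = 0.0110), but within BE(2)-C alone it was then 0.38 ± 0.16 (adjusted p = 0.272). In the siRNA arrays, which share no array with the controls, the same contrast of PTMA was 0.33 and 0.00 in BE(2)-C (siRNA no. 1 and no. 2; adjusted p = 0.150 and 0.997) and 0.17 and 0.26 in IMR-32. None of these 4 changes was called. The 6 calls also hung on single arrays: none was left without replicate 2 of IMR-32 at 42 h, replicate 1 of IMR-32 at 48 h or 54 h, either replicate of BE(2)-C at 42 h, or replicate 1 of BE(2)-C at 48 h. With 1 mean per line and time, in place of 1 shared time term, the average change of both lines was called at 496 probes (1.05%), 214 higher and 282 lower. The same fit called 1968 probes in BE(2)-C and 0 in IMR-32, so 1 line alone can carry this average.

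The other 5 called probes have no gene in the annotation used. Their shared changes ran from 0.46 to 0.63, and ILMN_1655710, the one with the largest, changed by 0.79 in BE(2)-C and 0.47 in IMR-32. All 5 remained called without the array that stood apart.

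Leaving out that array raised the number of calls in the shared fit to 41 higher and 2 lower (0.0909% of probes), of which 32 rises and 1 fall had no gene symbol. UQCRH, a subunit of respiratory complex III, had log2 levels of 10.80 and 10.44 at 54 h in BE(2)-C, against 9.64 and 9.77 at 42 h. In IMR-32 it had 9.18 and 9.04 at 54 h, against 8.84 and 8.80 at 42 h. The 2 times did not overlap in either line; its shared change was 0.60 ± 0.10 with all arrays (adjusted p = 0.0551) and 0.48 ± 0.09 without that 1 array (adjusted p = 0.0250). A second, brighter UQCRH probe changed by only 0.11.

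TXNL1, a thioredoxin-like protein bound to the proteasome, changed evenly. Its log2 level was 8.85 and 8.91 at 54 h in BE(2)-C, against 8.51 and 8.32 at 42 h, and 9.00 and 8.96 at 54 h in IMR-32, against 8.65 and 8.60 at 42 h. The spread between replicates was small in both lines, and the shared change was 0.41 ± 0.07 with all arrays (adjusted p = 0.0633) and 0.42 ± 0.08 without that array (adjusted p = 0.0273). In the siRNA arrays TXNL1 changed by 0.31 and 0.27 in BE(2)-C and by -0.05 and 0.15 in IMR-32, none of them called.

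The remaining named calls of the fit without that array were U2AF1 (the small subunit of the splicing factor that recognises the end of introns; 0.55, adjusted p = 0.00606), FABP5 (a fatty acid binding protein; 0.53, adjusted p = 0.0268), YBEY (0.38, adjusted p = 0.0415), and probes of the pseudogenes RPL23AP64 (0.52), RPL21P28 (0.51) and FTH1P3 (0.47), which may also bind transcripts of their parent genes. For U2AF1 and FABP5 the brighter probe of the same gene had shared changes of 0.04 and -0.09 with all arrays. A brighter RPL21P28 probe had a shared change of -0.26 with all arrays. For YBEY a brighter probe had 0.17 and another detected probe -0.02. INTS1, a subunit of the Integrator complex that cuts the ends of small nuclear RNAs, was the only named call in the other direction, at -0.55 (adjusted p = 0.0268). Its lines differed, with -1.36 in BE(2)-C and -0.22 ± 0.14 in IMR-32, where it was not called, and the difference was called with all arrays (-1.14, adjusted p = 0.0120) and without that array (-0.83, adjusted p = 0.0253). Other genes with low p and a like change in both lines, such as RPL9 (0.44, adjusted p = 0.0790) and RPLP1 (0.54, adjusted p = 0.0802) of the ribosome, the mitochondrial import factor TOMM34 (-0.47, adjusted p = 0.0640) and the kinase GSK3B (-0.36, adjusted p = 0.0865), missed the threshold with all arrays. Of these 4 genes the groups at 54 h and 42 h did not overlap in either line. RPL9 and RPLP1 do not stand for their class. Over 126 probes of cytosolic ribosomal proteins the median change was 0.01 in BE(2)-C, with 5 called higher and 2 lower, and 0.03 in IMR-32.

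The promoters of PTMA and INTS1 are shown as examples. With cell line as a block, PTMA was the only named gene called with all arrays, higher at 54 h. INTS1 was the only named gene called lower at 54 h without the array that stood apart, with most of its change in BE(2)-C. Promoters of the other named genes called without that array are not shown. They are the RefSeq sequences of GRCh38.p14, from 250 bases before to 50 bases after the gene's start, 5′ to 3′ on the gene's strand, with the CCAAT box in capitals. The windows were searched on both strands for CACGTG, the E-box read by MYC proteins, for CCAAT and for TATAAA.
PTMA, chr2:231708275-231708574, plus strand: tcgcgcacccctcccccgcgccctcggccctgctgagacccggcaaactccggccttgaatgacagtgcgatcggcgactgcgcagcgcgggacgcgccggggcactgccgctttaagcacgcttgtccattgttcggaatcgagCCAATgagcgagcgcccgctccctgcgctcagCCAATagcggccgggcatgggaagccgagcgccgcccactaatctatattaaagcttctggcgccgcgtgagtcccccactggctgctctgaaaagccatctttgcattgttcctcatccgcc
INTS1, chr7:1504340-1504639, minus strand: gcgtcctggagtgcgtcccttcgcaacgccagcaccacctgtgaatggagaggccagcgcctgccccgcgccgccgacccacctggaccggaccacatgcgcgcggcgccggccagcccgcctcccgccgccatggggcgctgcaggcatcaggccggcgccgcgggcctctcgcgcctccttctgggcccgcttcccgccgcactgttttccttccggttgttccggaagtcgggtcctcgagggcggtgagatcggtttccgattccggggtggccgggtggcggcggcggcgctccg
The PTMA window held CCAAT 2 times and neither other motif, and the INTS1 window held none of the 3. CCAAT stood in 35.7% of all 27305 promoters and CACGTG in 7.43%. Among genes called in BE(2)-C, described next, CACGTG stood in 9.23% of 542 promoters of genes higher at 54 h and in 11.3% of 776 promoters of genes lower at 54 h, beside 9.93% of the promoters of all detected genes; CCAAT stood in 37.8% and 35.3%, beside 37.0%. These counts describe letters only.

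Within BE(2)-C the 2 times differed much more. There, 897 probes rose and 1071 fell, together 4.16% of those tested (1.9% and 2.26%), for 665 and 910 genes. The median fold was 1.45 among the higher and 1.47 among the lower probes, and 37 and 20 of them exceeded 2-fold. By contrast no probe was called in IMR-32 (0% of those tested). There 1611 probes (3.4%) had an unadjusted p under 0.05 and the lowest adjusted p was 0.514. Both lines share 1 estimate of the spread per probe in this fit. Replicates differed more in BE(2)-C at 54 h (SD 0.353) than in IMR-32 at 54 h (0.140). Standard errors thus tend to be too wide for IMR-32 and too narrow for BE(2)-C, so the numbers of calls in the lines are not directly comparable. Over the bright probes the log2 changes had an SD of 0.317 in BE(2)-C and 0.124 in IMR-32. Without the array that stood apart, 436 probes rose and 349 fell in BE(2)-C (1.66%), IMR-32 again had no call, and the SD in BE(2)-C was 0.262. Most of the 897 and 1071 calls were not called in that fit. Both 54 h arrays lay beyond both 42 h arrays in all of these called probes, so leaving out a 54 h array could not change a sign. Leaving out replicate 1 or 2 of BE(2)-C at 42 h gave 860 and 655 calls, and leaving out replicate 2 at 54 h, so that only the array that stood apart remained, gave 4387. At 54 h both arrays lay above both arrays of 42 h for 19% of all probes in BE(2)-C and 17.7% in IMR-32, and below them for 19.5% and 17.5%.

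**Figure D1:**
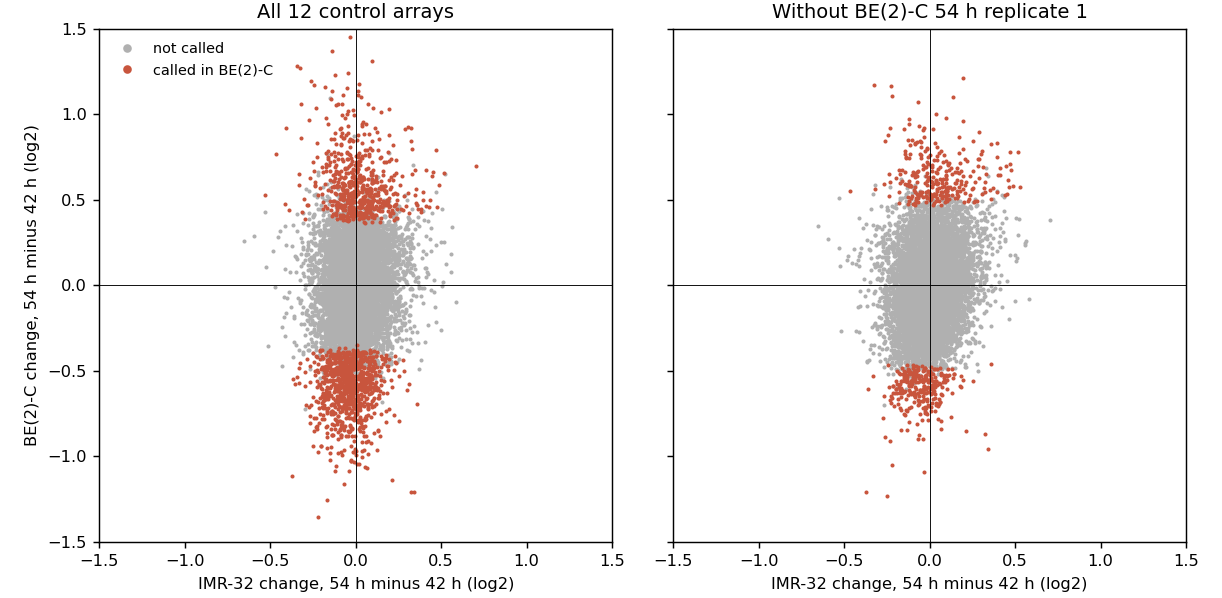
Each point is a bright probe, with its log2 change from 42 h to 54 h in IMR-32 on the x axis and in BE(2)-C on the y axis, with all control arrays and without BE(2)-C 54 h replicate 1. The cloud is wider along the BE(2)-C axis, with an SD of 0.317 against 0.124 in IMR-32 with all arrays, and of 0.262 without that array.

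The lowest p among the falls in BE(2)-C belonged to INTS1, with log2 levels of 8.58 and 9.20 at 54 h, against 10.25 and 10.25 at 42 h. In IMR-32 it had 9.83 and 9.71 at 54 h, against 9.98 and 10.00 at 42 h. Both arrays at 54 h were far below those at 42 h in BE(2)-C, by 1.36 ± 0.14 on the log2 scale or 2.56-fold (adjusted p = 6.38e-05), and without replicate 1 the fall was 1.05 ± 0.12 (adjusted p = 9.86e-05). At 48 h, with 9.50 and 9.49 in BE(2)-C, INTS1 was already lower than at 42 h. In IMR-32 it had 9.48 and 9.57 at 48 h, which was lower than at 42 h and also lower than at 54 h.

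PIGQ, an enzyme of the first step of glycosylphosphatidylinositol anchor synthesis, had log2 levels of 8.87 and 9.70 at 54 h in BE(2)-C, against 10.35 and 10.73 at 42 h. Replicate 1 was well below replicate 2 at 54 h, and both were below the arrays at 42 h. The change was -1.26 ± 0.17 (adjusted p = 0.000254), and without replicate 1 it was -0.84 ± 0.14 (adjusted p = 0.00223).

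The other leading falls in BE(2)-C were MED16, a subunit of the Mediator tail (-1.16 ± 0.13, and -0.90 without replicate 1), E4F1, a transcription factor with ubiquitin ligase activity (-1.08 ± 0.14, and -0.80), and the lipid transporter ABCA3 (-1.07 ± 0.13, and -0.84). ABCA3 had log2 levels of 9.01 and 9.46 at 54 h in BE(2)-C, against 10.25 and 10.36 at 42 h, and 9.44 and 9.17 at 54 h in IMR-32, against 9.28 and 9.21 at 42 h. It fell in BE(2)-C to about the level that IMR-32 held at both times. All 5 leading falls kept their call without replicate 1. A second MED16 probe fell by 0.97, but another, dimmer one changed by 0.66 in the other direction (adjusted p = 0.0489).

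Of the 5 leading rises, 3 rested on replicate 1. HMGA1, an architectural chromatin protein, had log2 levels of 12.71 and 11.04 at 54 h in BE(2)-C, against 10.55 and 10.46 at 42 h. PKM, the pyruvate kinase of glycolysis, had 10.73 and 9.07 at 54 h, against 8.64 and 8.59 at 42 h. In both genes replicate 1 was far above replicate 2, which lay only 0.54 and 0.45 above the mean at 42 h. The changes were 1.37 ± 0.28 and 1.28 ± 0.28 with both arrays (adjusted p = 0.00575 and 0.00963), and without replicate 1 the adjusted p was 0.0742 for HMGA1 and 0.179 for PKM. LOC644936, a locus of no annotated role here, showed the same pattern (1.24 with both arrays, and 0.42, not called, without replicate 1). Of the other PKM probes, one rose by 0.97 with both arrays, while the brightest changed by 0.44 and was not called. Without replicate 1 these probes changed by 0.22 and -0.15.

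TLX2 and IGF2 kept their call. TLX2, a homeobox factor of neural crest derivatives, had log2 levels of 9.29 and 8.62 at 54 h in BE(2)-C, against 7.65 and 7.63 at 42 h. Both arrays at 54 h were well above 42 h, by 1.32 ± 0.15 or 2.49-fold (adjusted p = 0.000114), and by 0.98 ± 0.13 without replicate 1 (adjusted p = 0.000547). IGF2, a fetal growth factor, had 9.29 and 8.16 at 54 h, against 7.64 and 7.28 at 42 h, a change of 1.26 ± 0.22 and, without replicate 1, of 0.70 ± 0.16 (adjusted p = 0.0192). A second IGF2 probe rose by 0.51. The IGF2 probe was not detected on any IMR-32 control array.

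Other genes were among the largest rises in the fit without replicate 1, in which replicate 2 is the only BE(2)-C array at 54 h. There AP1S1, a subunit of a clathrin adaptor, changed by 1.21 ± 0.16, POLR2C, a subunit of RNA polymerase II, by 1.07 ± 0.13, and UPF2, a factor of nonsense-mediated decay, by 1.00 ± 0.12. POLR2C had log2 levels of 10.43 and 10.84 at 54 h in BE(2)-C, against 9.79 and 9.74 at 42 h. In these genes replicate 1 was the lower of the 2 arrays at 54 h, which a choice by replicate 2 favours. All 3 were called with both arrays too (1.03, 0.87 and 0.83). That fit uses replicate 2 again, so it is no separate support. AP1S1 has 1 probe, a second POLR2C probe changed by 0.09, and 2 other detected UPF2 probes by 0.32 and 0.28. MCRIP2 had nearly equal replicates, 9.88 and 9.79 at 54 h against 8.81 and 8.89 at 42 h, with changes of 0.98 with both arrays and 0.93 without replicate 1.

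**Figure D2:**
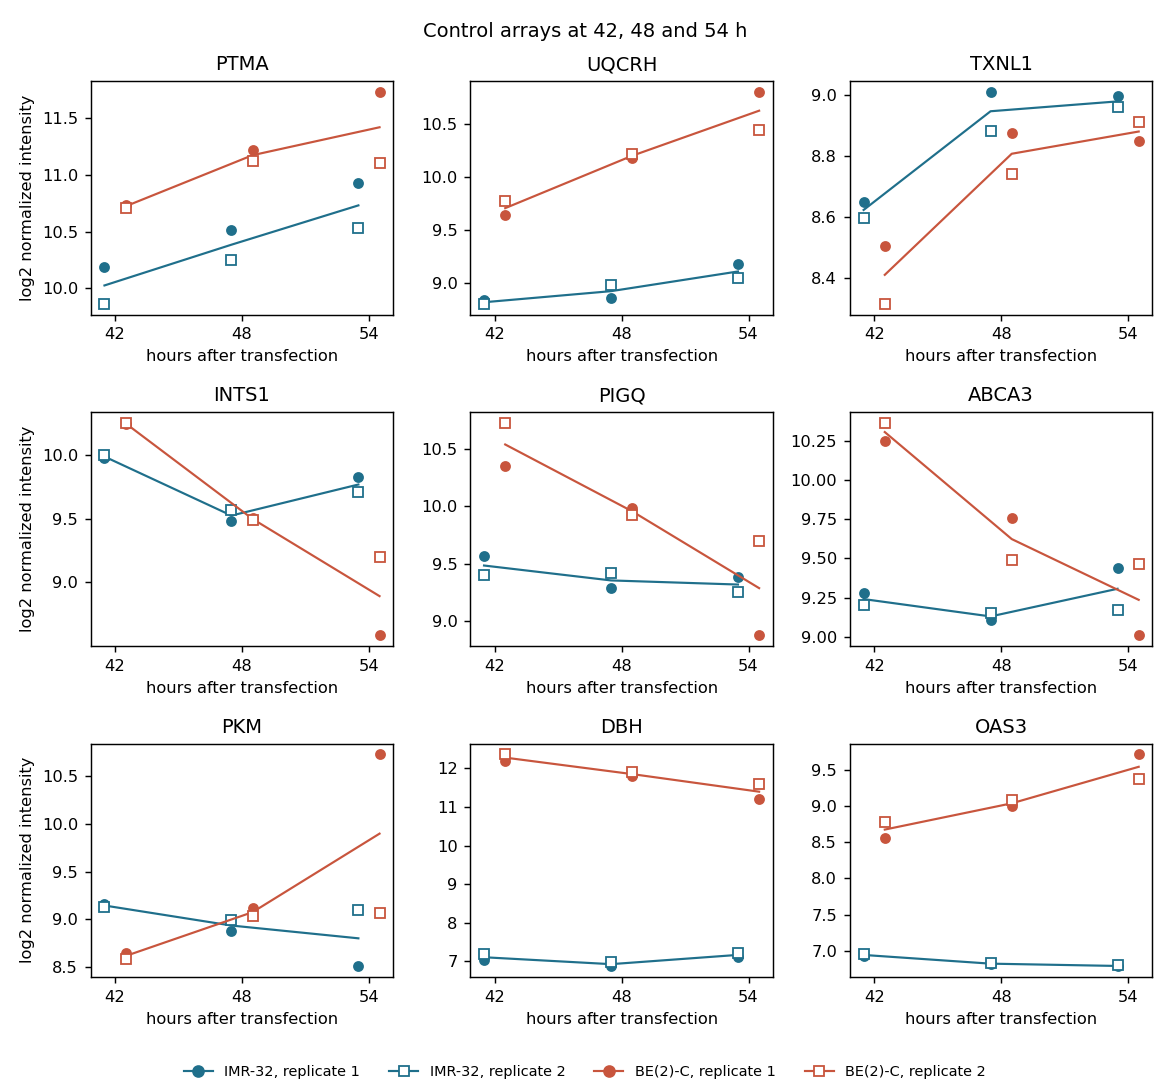
Log2 normalized intensity (y axis) of 9 genes against hours after transfection (x axis) in the control arrays of both lines, 1 point per array. PTMA is higher at 54 h in both lines, INTS1, PIGQ and ABCA3 are lower at 54 h in BE(2)-C, and in PKM a single BE(2)-C array at 54 h, with 10.73, lies apart from the other, with 9.07.

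For most probes called in BE(2)-C the 48 h mean of that line lay between the others. In BE(2)-C, 831 of the 897 higher and 1041 of the 1071 lower probes had their 48 h mean between the means at 42 h and 54 h. The median probe had by 48 h covered 58.5% of its rise and 55.01% of its fall. Since the calls were made on the 42 h and 54 h arrays, these shares are a description. In the shared fit no probe was called between 48 h and 42 h or between 54 h and 48 h (0% each), with 3153 and 2126 probes at an unadjusted p under 0.05. Without the array that stood apart, 9 probes were higher and 5 lower at 48 h against 42 h (0.0296%), and 1 was higher at 54 h against 48 h (0.00211%).

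The lines differed in their change, tested as BE(2)-C minus IMR-32, at 100 probes in the positive and 93 in the negative direction (0.408% of probes), and at 51 and 21 probes (0.152%) without the array that stood apart. The count hung on single arrays of either line: it was 0 to 6 without any 1 of the 4 IMR-32 arrays at 42 h and 54 h or without replicate 2 of BE(2)-C at 42 h, 50 without replicate 1 of BE(2)-C at 42 h, 64 without either IMR-32 array at 48 h, and 2476 without replicate 2 of BE(2)-C at 54 h. The 5 largest positive differences among the named genes, detected on arrays of at least 1 line, were those of PPDPF (1.38 ± 0.27, adjusted p = 0.0241), IGF2 (1.37 ± 0.31, adjusted p = 0.0498, with IMR-32 not above background at any time), the RNA helicase DHX9 (1.35 ± 0.23, adjusted p = 0.0120), the RNA-binding protein PRRC2A (1.34 ± 0.27, adjusted p = 0.0286) and GATAD2B, a subunit of the NuRD chromatin complex (1.28 ± 0.23, adjusted p = 0.0179). The other DHX9 probes changed in the opposite direction in BE(2)-C, by -0.35, -0.35 and -0.45, and only the last of these changes was called. Without that array PPDPF, DHX9 and GATAD2B kept the call, whereas IGF2 (0.80, adjusted p = 0.127) and PRRC2A (0.86, adjusted p = 0.0630) lost it. The 5 largest negative ones were INTS1 (-1.14), ABCA3 (-1.13), the lysosomal glycoprotein CD68 (-1.11), MED16 (-1.09) and PIGQ (-1.09), with adjusted p from 0.0119 to 0.0479. Of these CD68 (-0.75, adjusted p = 0.108) and PIGQ (-0.68, adjusted p = 0.150) lost the call without that array.

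CD68 also stands in the leukocyte marker list. Its log2 level was 7.77 and 8.50 at 54 h in BE(2)-C, against 9.30 and 9.09 at 42 h. The log2 of the summed level of the 5 leukocyte markers was 9.52 to 9.74 at 54 h in BE(2)-C, against 10.0 to 10.1 at 42 h, and 9.76 to 9.90 at 54 h in IMR-32, against 9.78 to 9.89 at 42 h. Of the 5 markers CD68 and CD14 were detected in each line, while PTPRC, the defining leukocyte marker, LYZ and CD3E were not detected on any control array.

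In IMR-32, 3 of the named genes of lowest p are given as values only, since none was called. MAP1B, a microtubule-associated protein of neurites, had log2 levels of 8.30 and 8.65 at 54 h, against 9.14 and 8.99 at 42 h. DYRK2, a kinase, had 9.13 and 9.05 at 54 h, against 9.73 and 9.52 at 42 h. NBPF9 had 9.17 and 9.50 at 54 h, against 10.03 and 9.96 at 42 h. NBPF9 belongs to a family of near-identical genes that a probe may not tell apart. The 2 times did not overlap in these 3 genes, with changes of -0.59, -0.53 and -0.66, and in BE(2)-C the same probes changed by 0.29, 0.53 and 0.26. The difference between lines, BE(2)-C minus IMR-32, was called for all 3: 0.88 for MAP1B (adjusted p = 0.0445), 1.06 for DYRK2 (adjusted p = 0.0120) and 0.92 for NBPF9 (adjusted p = 0.0241). Without the BE(2)-C array that stood apart it was called for DYRK2 (adjusted p = 0.0252) and NBPF9 (adjusted p = 0.0252) but not for MAP1B (adjusted p = 0.0974). DYRK2 also changed by -0.40 and -0.25 in the IMR-32 arrays of siRNA no. 1 and no. 2, neither called, while NBPF9 changed there by -0.20 and -0.10. The 3 genes were picked by their IMR-32 change, and the same arrays enter the difference between lines, which is therefore no separate support. For other genes of low p in IMR-32 that difference was not called in limma. These were PTMA (adjusted p = 0.996), TTC9C (0.293), GSK3B (0.882), MIAT (0.614) and GET1 (0.228).

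The siRNA arrays hold the same time contrast on other arrays. In BE(2)-C, 675 probes rose and 602 fell in siRNA no. 1 arrays (2.7% of probes), and 858 rose and 643 fell in siRNA no. 2 arrays (3.17%). In IMR-32 no probe was called in siRNA no. 1 arrays (0%), and 6 rose and 4 fell in siRNA no. 2 arrays (0.0211%). Over the 9302 bright probes, the control change of BE(2)-C correlated with that of the siRNA arrays of the same line at r = 0.735 (no. 1) and 0.700 (no. 2), or 0.637 and 0.711 without the array that stood apart. In IMR-32 the values were 0.255 and 0.317. These r are across probes, which are not independent, and all arrays were normalized together. Between control BE(2)-C and siRNA IMR-32 arrays r was -0.05 (no. 1) and 0.06 (no. 2), or -0.007 and 0.185 without the array that stood apart.

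Most of the BE(2)-C calls had the same sign there. Of the 897 probes higher in control BE(2)-C, 92.8% and 93.3% were also higher at 54 h in siRNA no. 1 and no. 2 arrays, and 335 and 376 of them were called. Of the 1071 lower ones, 93.5% and 96.1% were lower, and 321 and 334 called. Over all probes 49.6% and 48.9% were higher in these arrays. In control IMR-32 arrays 52.95% of the higher and 62.0% of the lower probes had the same sign, beside 49.7% and 50.3% over all probes. TLX2 changed by 1.05 and 1.52, INTS1 by -0.49 and -0.59, PIGQ by -0.67 and -0.76 and IGF2 by 0.51 and 0.70 in siRNA no. 1 and no. 2 arrays of BE(2)-C, all called. PKM, whose control rise rested on replicate 1, changed by 0.32 (adjusted p = 0.150) and 0.82 (adjusted p = 0.000199).

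**Figure D3:**
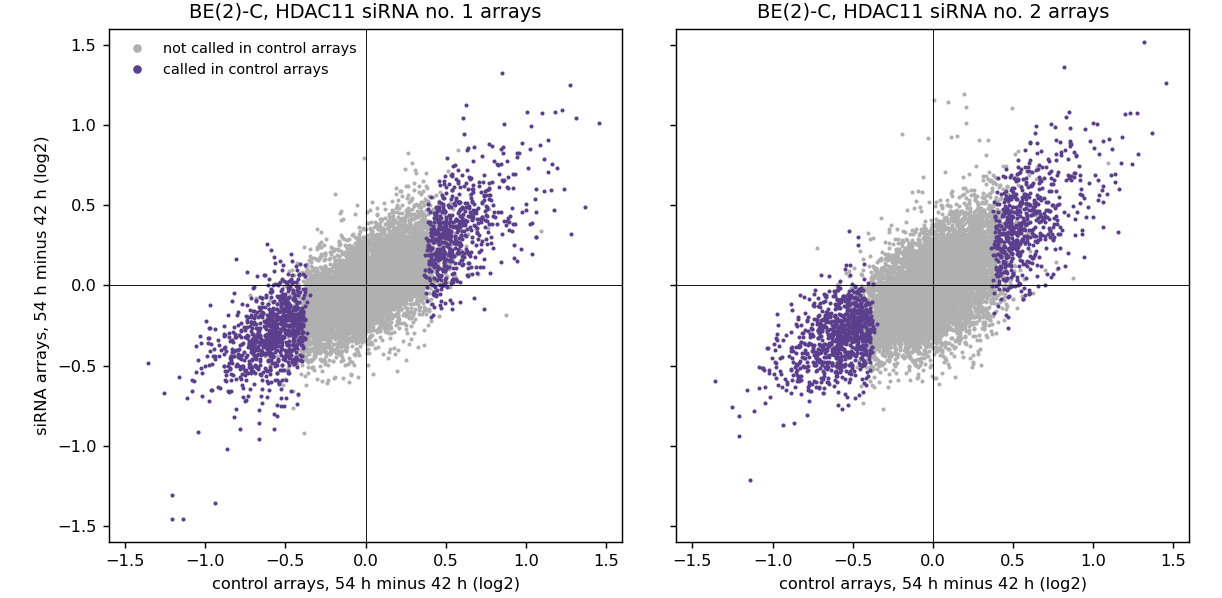
Log2 change from 42 h to 54 h of the bright probes in BE(2)-C, with control arrays on the x axis and arrays of HDAC11 siRNA no. 1 or no. 2 on the y axis. The points run along the diagonal, with r = 0.735 for siRNA no. 1 and 0.700 for siRNA no. 2 over 9302 probes.

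The difference in change was also tested directly, with 1 time term for both lines. No probe was called between siRNA no. 1 and control arrays (0% of probes, with 2377 at an unadjusted p under 0.05). No such difference was fitted within a single line, so a difference confined to BE(2)-C could be missed. Between siRNA no. 2 and control arrays 6 probes were called (0.0127%). All 6 had the more positive change in siRNA no. 2 arrays and measure non-coding RNA: 2 probes of RN7SK (1.05 and 1.03 in siRNA no. 2 arrays, against 0.09 and 0.06 in control arrays), SNHG7, SNORA73A, SNORA73B and RNU6ATAC. Without the control array that stood apart, the 2 probes of RN7SK, an RNA that holds back transcription elongation, were the 2 still called, with differences of 0.84 and 0.82, and 1 probe was called for siRNA no. 1. Without replicate 2 of IMR-32 at 42 h or replicate 1 or 2 of BE(2)-C at 42 h, 3, 3 and 2 probes were called for siRNA no. 2.

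Probes of 1 gene often moved in opposite directions in BE(2)-C. Among 2171 genes with at least 2 probes detected on all BE(2)-C control arrays, 514 had a called probe, and in 245 of these (47.7%) another probe changed with the opposite sign. In 28 genes probes were called in both directions. One TLX2 probe rose as described above, while the other, brighter one had log2 levels of 8.88 and 9.01 at 54 h, against 9.48 and 9.57 at 42 h, a change of -0.59 (adjusted p = 0.00241). For DHX9, 1 probe was higher at 54 h, with 10.29 and 9.78 against 8.89 and 8.72 at 42 h, and another was lower, with 8.41 and 8.56 against 8.86 and 9.01. Dimmer DHX9 probes changed by -0.35 and -0.35, neither called. For TLX2 and for DHX9 the 2 probes with levels given here did not overlap between times, in opposite directions.

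MCM7, a subunit of the replicative helicase, showed the same: its bright probe had 12.69 and 12.77 at 54 h, against 13.17 and 13.30 at 42 h, and the dimmer one 9.50 and 9.00 at 54 h, against 8.67 and 8.29 at 42 h. Without replicate 1 of BE(2)-C at 54 h, 92 of 203 such genes (45.3%) held a probe of opposite sign and 3 were called in both directions. Among genes with exactly 2 such probes, signs were opposite in 41.8% of 404 genes with a call and in 42.7% of 1409 genes without one. The 2 shares lay close together, and their difference was not tested. Probes of a gene can lie in different exons or transcripts; their positions were not analysed here. INTS1, PIGQ, ABCA3, E4F1 and PTMA have 1 probe each, so their values have no second probe to be set beside.

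**Figure D4:**
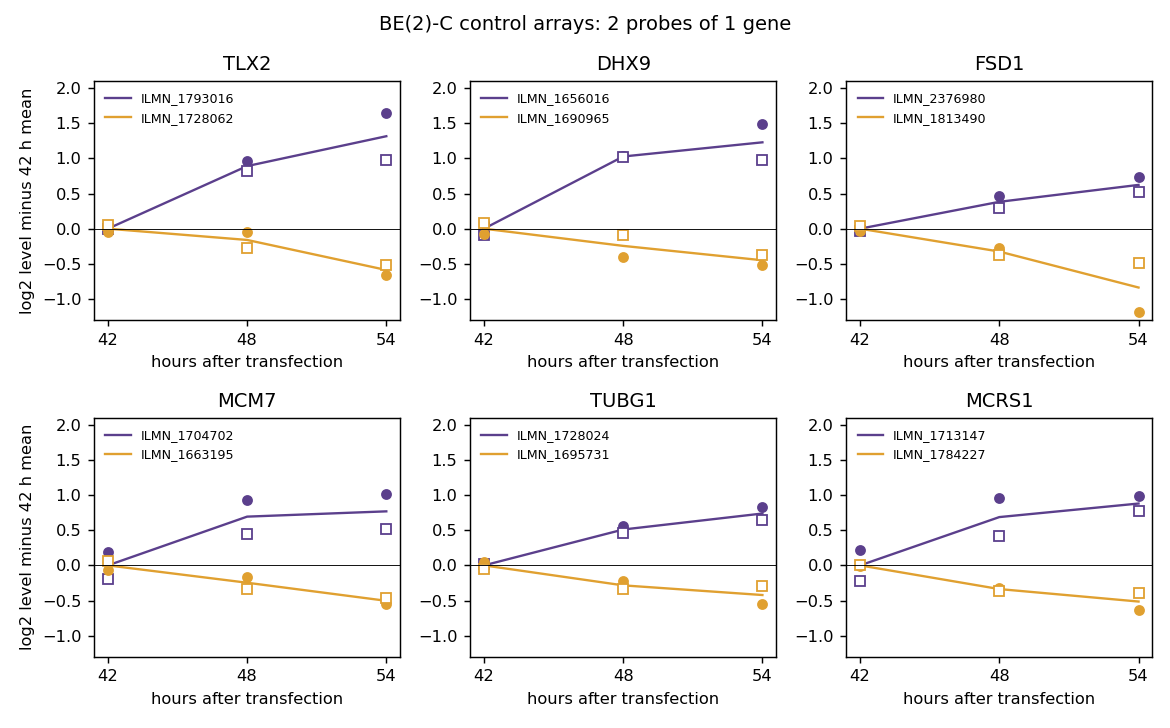
Log2 level relative to the mean at 42 h (y axis) against hours (x axis) for 2 probes of each of 6 genes in BE(2)-C control arrays, 1 point per array. In each gene 1 probe goes up and the other down, as in TLX2 with changes of 1.32 and -0.59.

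The gene lists, each gene taken by its brightest probe, held no member called in the shared fit or in IMR-32. In BE(2)-C, 73 of the 587 listed genes were called, 27 higher and 46 lower, and without replicate 1 at 54 h 22 were, 7 higher and 15 lower; over all genes 6.48% were called, 440 higher and 858 lower. Members named below were picked partly after their values were seen. Since so many called genes hold a probe of the opposite sign, each value stands for its probe only.

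Genes of the sympathetic lineage moved both ways. In the list of adrenergic transcription factors (2 of 16 called, both higher; list median -0.04, all genes -0.01), GATA2 and TFAP2B rose in BE(2)-C. GATA2 had log2 levels of 11.66 and 10.97 at 54 h, against 10.39 and 10.21 at 42 h, and TFAP2B had 10.28 and 9.51 at 54 h, against 8.96 and 8.80 at 42 h. Both kept their call without replicate 1, with changes of 0.67 and 0.63 in place of 1.02 and 1.01. In IMR-32 both probes lay near background, at 6.79 to 7.01 and 6.45 to 6.66 over all 3 times. They also rose in the siRNA arrays of BE(2)-C (GATA2 0.73 and 0.69, TFAP2B 0.73 and 0.76).

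DBH, the enzyme that turns dopamine into noradrenaline, was the only called member of 19 catecholamine and neuropeptide genes. It had log2 levels of 11.20 and 11.60 at 54 h in BE(2)-C, against 12.19 and 12.37 at 42 h, a change of -0.88 ± 0.12 (adjusted p = 0.000294) and of -0.68 without replicate 1. The times did not overlap, and the lines differed in the change by -0.94 ± 0.18 (adjusted p = 0.0231); without replicate 1 that difference was -0.74 (adjusted p = 0.0721). In siRNA arrays of BE(2)-C it was -0.43 (adjusted p = 0.0179) and -0.11 (adjusted p = 0.776).

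Neuronal genes held 8 called members of 27, 4 higher and 4 lower. L1CAM, a neural adhesion molecule, had 10.24 and 8.69 at 54 h in BE(2)-C, against 8.43 and 8.20 at 42 h, and so rested on replicate 1 (1.15, and 0.37 with adjusted p = 0.186 without it). The receptor kinase RET had 8.48 and 8.88 at 54 h, against 9.49 and 9.44 at 42 h, and kept its call without replicate 1 (-0.79, and -0.59). The synaptic vesicle protein SYP also kept it (0.82, and 0.47), whereas TUBB3 (-0.81, and -0.43) and ELAVL3 (-0.72, and -0.28) did not. A second ELAVL3 probe was called in the other direction with both arrays (0.84, and 0.57 without replicate 1).

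The RNA interference list had the largest share of called members among the lists, 5 of 13 (2 higher, 3 lower, list median -0.09). Over all genes 6.48% were called, but of those 20045 genes only 13950 were detected, against 12 of these 13. The list is singled out by its rank, and its share was not tested. TNRC6A, which ties Argonaute to the silencing machinery, had 9.74 and 8.87 at 54 h in BE(2)-C, against 8.25 and 8.08 at 42 h. TARBP2, a partner of Dicer, had 8.50 and 9.20 at 54 h, against 9.64 and 9.75 at 42 h. Both kept their call without replicate 1 (0.71 and -0.50), as did the export receptor XPO5 (-0.55, and -0.52), while AGO2 (-0.53, and -0.35) and DROSHA (0.56, and 0.36) did not. A second TARBP2 probe changed by 0.50, in the other direction.

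OAS3, an interferon-induced enzyme that senses double-stranded RNA, was the 1 called member of 34 interferon genes. It had log2 levels of 9.72 and 9.37 at 54 h in BE(2)-C, against 8.56 and 8.79 at 42 h, a change of 0.87 ± 0.12 that was 0.69 without replicate 1 (adjusted p = 0.00367). In siRNA no. 1 arrays of BE(2)-C it changed by 0.00 and in siRNA no. 2 arrays by 0.56. It was not detected on any control array of IMR-32.

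Genes of growth and division were called mostly in the lower direction among replication genes and not at all in the mitotic set of the study. Among 41 replication and S phase genes BE(2)-C had 7 falls and 1 rise. CDT1, which licenses origins, had 8.95 and 9.90 at 54 h, against 10.28 and 10.46 at 42 h (-0.94, and -0.47 with adjusted p = 0.0614 without replicate 1). Only CHAF1A was called in this list without replicate 1 (-0.56). Of 45 genes of G2 phase and mitosis, 3 were higher and 3 lower, among them CDC20 (-0.89) and TPX2 (0.58), and none was called without replicate 1. None of the 10 cell cycle genes that the study had chosen on arrays of this series was called in the shared fit, in either line or in the difference between lines, with shared changes from -0.19 for UHRF1 to 0.14 for CENPA. Of G1 regulators CCND3 was lower with and without replicate 1 (-0.80, and -0.56).

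Lists of metabolism and stress held called members in both directions in BE(2)-C. Glycolysis had 5 called members of 17, with HK1 (-0.49), PFKM (-0.48) and ALDOC (-0.70) lower and HK2 (0.46) and PGAM1 (0.53) higher; HK1 and ALDOC kept their call without replicate 1. The amino acid response had 3 of 33, all lower, and of these SLC7A5, a carrier of large neutral amino acids, kept its call (-0.60, and -0.56), while XPOT, the export receptor of transfer RNA, was called only without replicate 1 (-0.63). Cholesterol synthesis and uptake had 4 of 20, 3 higher and 1 lower, with IDI1 at 0.60, and fatty acid synthesis had FADS2 (0.75) higher and ACSS2 (-0.48) lower of 12; none of these was called without replicate 1. Of 17 genes of the unfolded protein response HSP90B1 (-0.60) and CRELD2 (-0.61) were lower with both arrays only. Of 13 heat shock genes DNAJB1 was higher (0.62) and BAG3 lower, and BAG3 alone kept its call without replicate 1 (-0.66, and -0.63). In the autophagy and lysosome list 3 of 18 were lower. Of these the receptor SQSTM1 (-0.78, and -0.47) and the kinase ULK1 (-0.60, and -0.47) were called with and without replicate 1, but the protease CTSB (-0.72, and -0.22) only with it. Another CTSB probe was called in the other direction with both arrays (0.47, and 0.26 without replicate 1). No member of the NRF2, mesenchymal and metallothionein lists was called, and the hypoxia list had 3 of 27, VEGFA (-0.53), PFKFB4 (-0.47) and SLC2A3 (-0.53), all lower and none of them called without replicate 1, when ANGPTL4 was called in the other direction (0.53, adjusted p = 0.0304).

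**Figure D5:**
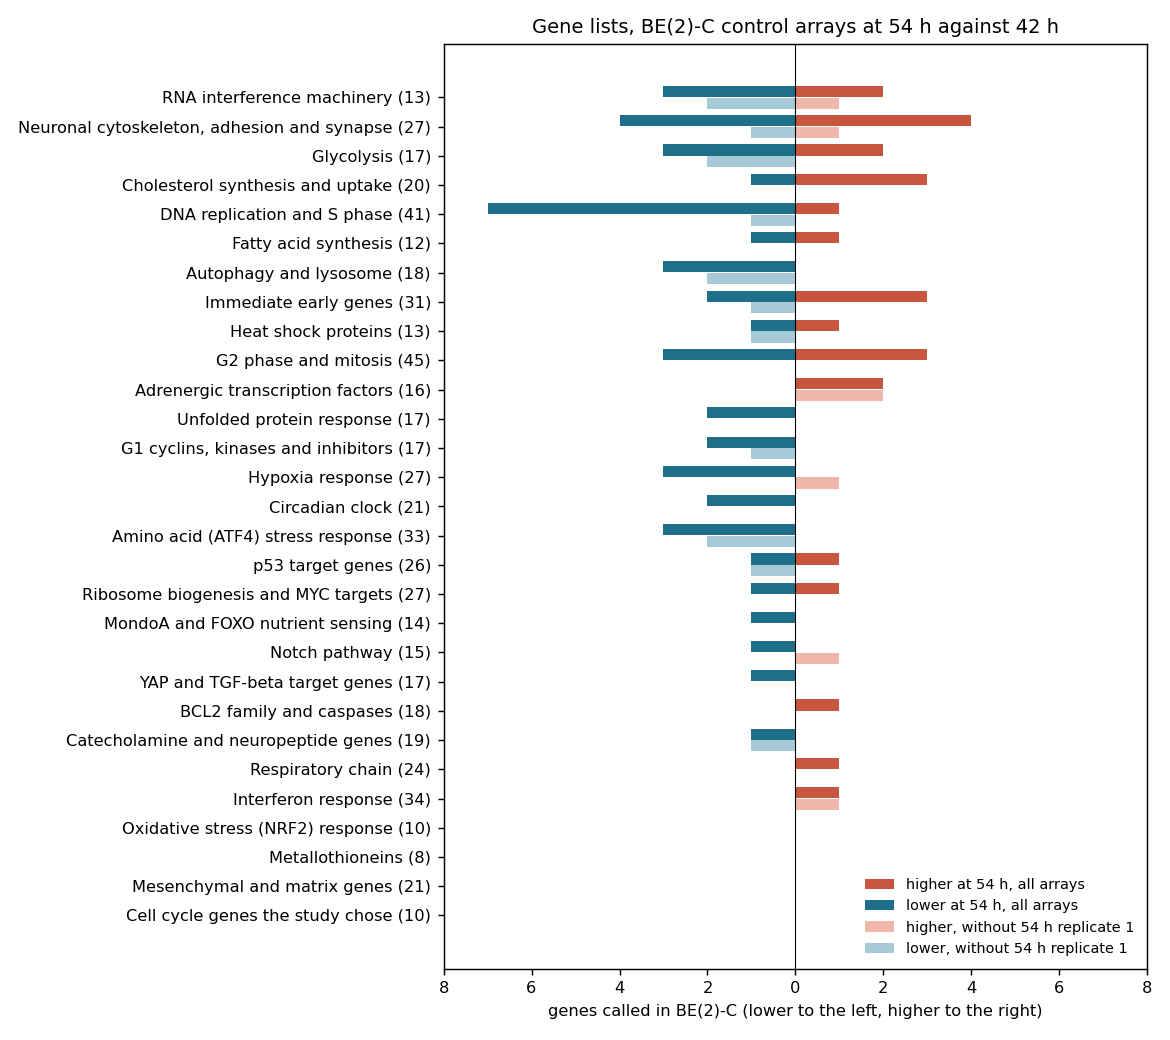
Members of the gene lists called in BE(2)-C per list, as counts higher or lower at 54 h (x axis), with all arrays and without BE(2)-C 54 h replicate 1. The total is 73 members with all arrays and 22 without that array.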

How the data were processed

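Gene expression was measured on Illumina HumanHT-12 arrays, 1 per sample. The deposited intensity values were made by the authors from iScan data by averaging the beads of each probe after removal of outlying beads, without normalization, and each deposited detection p-value tells whether a signal exceeds the negative control beads. A second table of intensity values, normalized between arrays by the authors on a linear scale, served as an alternative; the study's methods name quantile normalization, but the sorted values of this table are close and not equal between arrays. Depth does not apply to arrays, where the number of arrays limits precision.

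Of 47323 probes 3 with missing values were dropped. Intensities of all 36 arrays were quantile-normalized, without background subtraction or filter, log2-transformed and fitted with limma 3.58.1 in R 4.3.3, two-sided, with Benjamini-Hochberg adjustment: cell line plus time for the shared change, 1 mean per line and time for the change of each line and their difference. Sums of markers are log2 of summed linear levels. The fits were tested on simulated data. Probe symbols came from the platform's annotation; 17200 probes had none and 8 several. No source used here gives slide or scan day.

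Members and lists were chosen with earlier results of these data known. Named genes were the 10 (shared) or 5 (line, difference) largest rises and falls among called, detected, non-overlapping genes, up to 2 members of each list by shared change, and the study's cell cycle genes; the fits without BE(2)-C 54 h replicate 1, and genes taken from them, were added after the data were seen. Alternatives were median scaling, the authors' normalized values, normexp, quantile normalization over other sets of arrays, a detection filter, a replicate block, another eBayes prior, other sets of arrays or models, a threshold of 0.01 and leaving out each control array.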

Additional observations from a re-analysis of the deposited data

Results flagged for a closer look

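Differences between groups under the same time contrast, each by a limma test of the difference itself with Benjamini-Hochberg adjustment, were found at 100 probes with a more positive and 93 with a more negative change in BE(2)-C than in IMR-32. Among named genes the differences, BE(2)-C minus IMR-32, were 1.38 for PPDPF, 1.37 for IGF2 (not above background in IMR-32), 1.35 for DHX9, 1.34 for PRRC2A and 1.28 for GATAD2B, and -1.14 for INTS1, -1.13 for ABCA3, -1.11 for CD68, -1.09 for MED16 and -1.09 for PIGQ. The DHX9 value is that of a single probe, and the other DHX9 probes changed in the opposite direction in BE(2)-C. In 51 and 21 probes the difference was called without the BE(2)-C array of replicate 1 at 54 h, which correlated less with its line's other control arrays. A further 6 probes changed differently between siRNA no. 2 arrays and control arrays. What sets these changes apart was not tested.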

How the results depend on the processing

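The control arrays give 8 (shared fit) and 6 (line means) residual degrees of freedom, and levels near background, as those of HDAC11, limit what can be seen. Leaving out 1 control array at a time gave 0 to 43 shared calls, 0 in IMR-32, 655 to 4387 in BE(2)-C, 0 to 2476 for the difference between lines, 0 to 14 for 48 h against 42 h, 0 to 1 for 54 h against 48 h, 0 to 1 and 2 to 7 for siRNA no. 1 and no. 2 minus control, and 22 to 143 called list members in BE(2)-C (0 in the shared fit and in IMR-32). The highest counts in BE(2)-C, for the difference and for the lists came without replicate 2 of BE(2)-C at 54 h, which leaves only the array that stood apart. At an adjusted p under 0.01 there were 0 shared calls, 842 in BE(2)-C, 4 differences between lines, 1 and 25 in siRNA no. 1 and no. 2 arrays and 2 for siRNA no. 2 minus control. Median scaling gave 1 shared call, 1010 in BE(2)-C, 41 line differences, 8 and 176 in siRNA no. 1 and no. 2 arrays (58 higher and 118 lower in no. 2, against 87 and 15), 0 for siRNA no. 2 minus control and 38 list members in BE(2)-C. Normexp background correction gave 0 shared calls, 1178 in BE(2)-C, 2 line differences, 0 and 18 in siRNA no. 1 and no. 2 arrays and 2 for siRNA no. 2 minus control. A detection filter gave 0 shared calls and 116 line differences, and the 8 arrays of 42 h and 54 h alone gave 0 shared calls. The average of line means was called at 496 probes (214 higher, 282 lower). In a fit of all 36 arrays that average was called at 1167 probes (501 higher, 666 lower) and the line difference at 736. That fit called 2830 probes in BE(2)-C and 0 in IMR-32, so the average does not count changes shared by both lines. The cause of these shifts was not tested. All 1968 BE(2)-C calls kept their sign under all 5 other normalizations, and 1002 (median scaling) to 1937 (quantile over the 12 control arrays) were called again. Reversed signs occurred only in small, uncalled shared changes: with median scaling KIF23 (0.052) and NASP (0.051), and, with 1 array left out, CENPE (-0.0045 to 0.099, reversed without BE(2)-C 42 h replicate 1), MAD2L1 (-0.068 to 0.23, reversed without BE(2)-C 54 h replicate 1) and NASP (-0.074 to 0.0022, reversed without BE(2)-C 42 h replicate 2 or 54 h replicate 1). Same-numbered replicates deviated together with r of 0.02 to 0.13 in IMR-32 and 0.15 to 0.29 in BE(2)-C between times; with 2 numbers per group, and no label tying them across times, they were not taken to pair the arrays. With the replicate block 6 shared calls, 2316 in BE(2)-C, 0 in IMR-32 and 369 line differences were found. The slide could not be used as a block, since no source used here gives it.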
